A study of Mus musculus with 2 samples.

Results

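Across the mouse genome, 63 loci carried more acetylated lysine 27 (H3K27ac), more trimethylated lysine 4 (H3K4me3) and more trimethylated lysine 36 (H3K36me3) of histone H3 in cells without Dicer than in cells with it. A locus is a chain of neighbouring events at most 10 kb apart, where an event is a position at which the authors' software placed a difference in chromatin immunoprecipitation (ChIP-seq) reads. Each of these chains held at least 1 event of every mark with more reads in the knockout and no event with more reads in the wild type. They held 617 of the 21418 events in the 6 deposited lists: 240 of H3K27ac, 120 of H3K4me3 and 257 of H3K36me3. The 63 loci were 0.694% of the 9081 chains in the genome and 1.28% of the 4904 chains in which every event was higher in the knockout. Because the marks and their direction chose the loci, the ratios below describe the loci and support no test.

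The cells were immortalized monoclonal mouse lines of 2 genotypes, Dicer KO and Dicer WT, which the growth protocol calls MSCs and the sample titles call fibroblasts. Both were grown in the same serum-containing medium, with no treatment other than fixation. A monoclonal line stands for 1 founder cell, and the labels do not say how many clones there were, so genotype and clone cannot be told apart. The labels describe 1 H3K27ac sample per genotype and no sample of the other marks, and the design text speaks of 2 replicates. The names of both H3K27ac lists carry the word pooledReps, so their values are read here as pooled over replicates. Those of the H3K4me3 and H3K36me3 lists carry the word noControl, which the sources used here do not define. Each event carries a single value for KO and a single value for WT, so no replicate error can be given. The identity of the cells was not checked against marker genes, because no gene annotation of the mm9 build was used here and the loci are therefore named by position.

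Dicer is the ribonuclease that cuts microRNA precursors into mature microRNAs, which lower the stability and translation of messenger RNAs with matching sites. H3K27ac is found on active promoters and enhancers, H3K4me3 at the starts of transcribed genes, and H3K36me3 along the bodies of genes that RNA polymerase II is passing through. A place with all of these marks is usually read as a transcribed gene with its start and its nearby regulatory elements. These are general properties of the marks, not results of these lists.

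The list of H3K4me3 events higher in the knockout also gives, for some events, a short sequence of 8 bases (a k-mer), in a column that the sources used here do not define. These are the sequences that the deposited files tie to the loci. Of the 120 member H3K4me3 events, 14 (11.7%, 95% interval 6.53 to 18.8) had one, in 12 of the 63 loci, against 112 of the other 618 events of that list (18.1%, 15.2 to 21.4). The k-mers took 4 forms, printed 5′ to 3′ as deposited, with ACTT in capitals, a run that all of them share, as they also share TTCA:
K-mer of 8 member events: ttcACTTt
K-mer of 3 member events: ACTTtcac
K-mer of 2 member events: tttcACTT
K-mer of 1 member event: cACTTtca
The whole list of H3K4me3 events higher in the knockout has only these 4 forms, in 73, 10, 39 and 4 events in the order above. They are thus a property of the list and not of the loci. As strings all 4 overlap one another, and each can be read from a run in which the unit of 6 bases, tttcac, repeats. Whether such a run lies at the loci was not tested.

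The member events with a k-mer did not form a group of their own by ratio. Their knockout to wild-type ratio ran from 1.64 to 41.3 with a median of 4.17, and the 106 member H3K4me3 events without one ran from 2.05 to 115 with a median of 6.00. The strongest of the 14 lay at 119001182 on chromosome 2, with 750.8 KO reads against 18.2 scaled WT reads and the k-mer tttcACTT. For scale, RefSeq promoter windows of 300 bases in build GRCm38.p6 were searched on both strands. Windows with ttcACTTt were 1.56% of 32851, those with tttcACTT 1.60%, those with cACTTtca 1.21% and those with ACTTtcac 0.846%, and 4.05% held at least 1 of the 4. How far from an event a k-mer may lie is not given in the sources used here, so these shares are not a matched background for the events. A match is a description of letters only and names no binding factor.

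The ratio of a mark in a locus is the sum of its KO reads over the sum of its WT reads, the latter as scaled by the authors' software. Its 95% interval is the exact conditional binomial interval of the read numbers, and it covers counting error only. The median locus ratio was 3.74 for H3K27ac (quartiles 2.74 and 5.33, range 2.15 to 19.97), 4.21 for H3K4me3 (3.42 and 7.03, range 1.97 to 29.8) and 5.34 for H3K36me3 (3.70 and 8.75, range 2.65 to 38.3). At the scale of the lists, H3K36me3 had the largest ratio of the 3 marks in 32 loci, H3K4me3 in 20 and H3K27ac in 11, and this order was not checked at another scale. The H3K36me3 ratios rest on fewer reads. A locus had a median of 1481 KO reads for H3K27ac, 468.5 for H3K4me3 and 102.5 for H3K36me3, and 9 loci had under 10 unscaled WT reads of H3K36me3. The lower limit of the interval was above 2 in 61 loci for H3K27ac, in 57 for H3K4me3 and in 57 for H3K36me3. The same reads put the events in the lists, and the intervals are not adjusted for that choice, so these counts are no test.

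**Figure D1:**
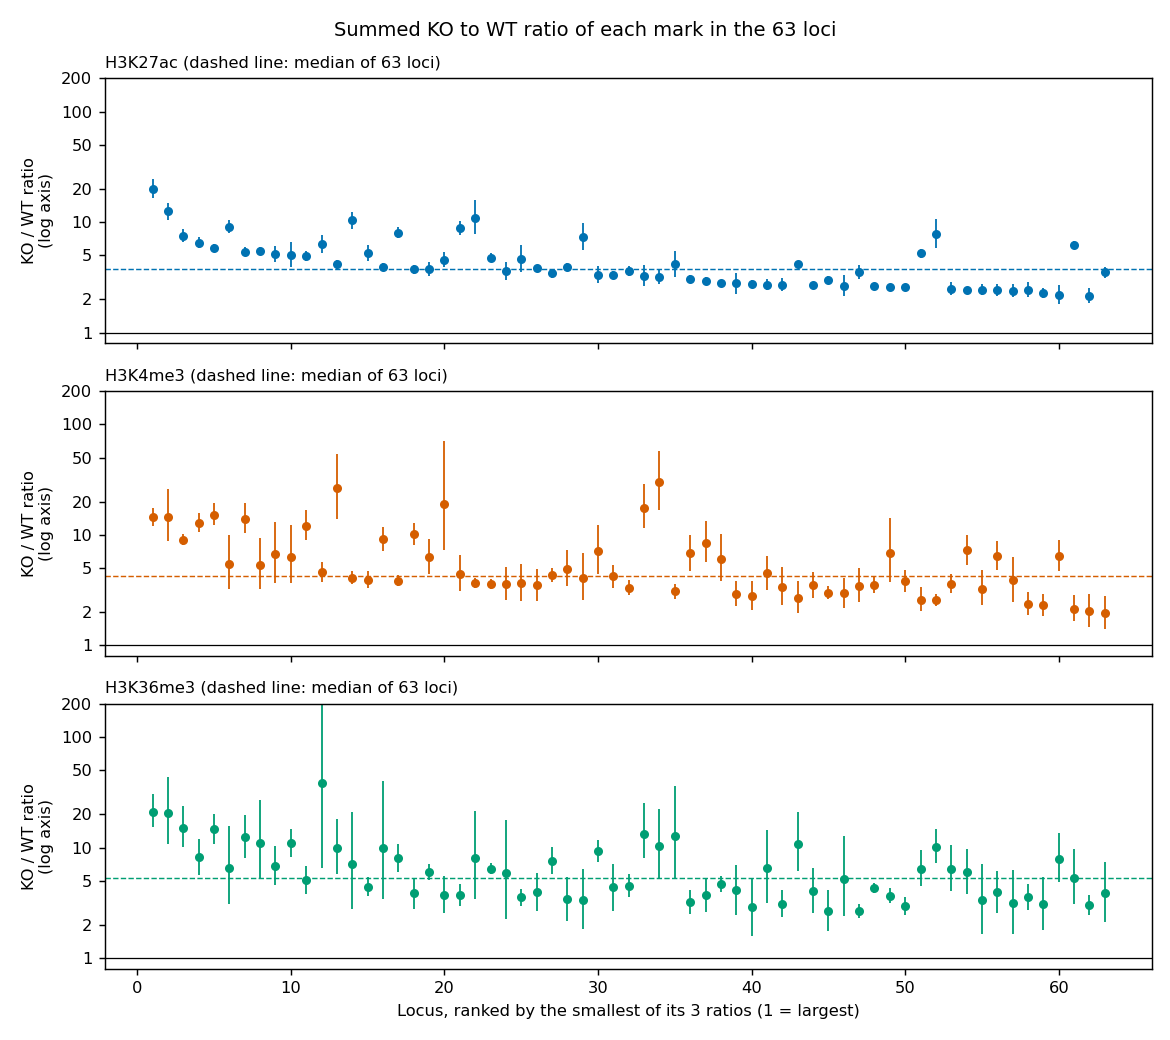
Each point is the summed KO to WT ratio of 1 mark in 1 locus on a log axis, with its 95% counting interval as a bar, and loci are ranked along the horizontal axis by the smallest of their 3 ratios. Ranks 1 and 2 stand above 10 in every mark, the H3K36me3 bars are the widest, and the bar at rank 12, which reaches 1648, is cut at the top of the axis.

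Few loci were strong in every mark. At the scale of the lists, all 3 ratios reached at least 3 in 36 loci and at least 5 in 10 loci. The smallest of the 3 ratios had a median of 3.31 and a range of 1.97 to 14.5. The 10 would not be the same at another scale, which takes reads relative to the expected reads that the lists give for each genotype on the same chromosome. How the expected reads were obtained is not defined in the sources used here. At that scale the locus at 22984817 on chromosome 16, among the 10, had an H3K27ac ratio of 3.66. That at 47277356 on chromosome 17, not among them, had 7.20 for H3K27ac and 6.90 for H3K4me3. Across the 63 loci, which share the same libraries and clones, the log2 ratios of H3K27ac and H3K36me3 had a Pearson r of 0.555 (Spearman's rho 0.555). For H3K4me3 and H3K36me3 r was 0.455 (rho 0.447), and for H3K27ac and H3K4me3 it was 0.243 (rho 0.261), although these last marks lay closest together. These correlations are descriptions and were given no p-value.

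**Figure D2:**
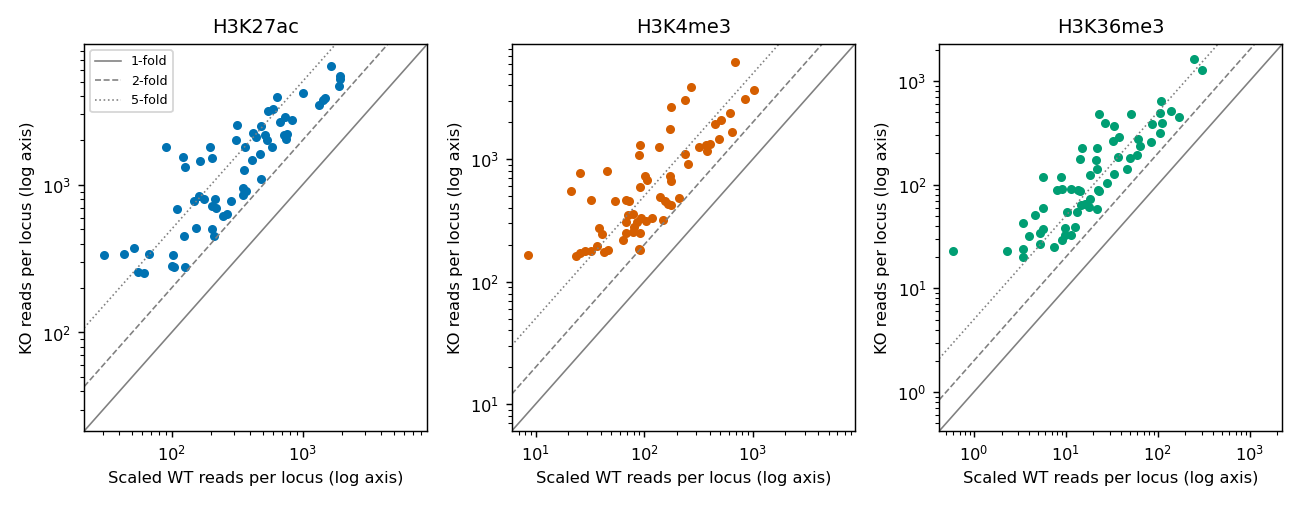
Each point is 1 of the 63 loci, with the summed scaled WT reads on the horizontal axis and the summed KO reads on the vertical axis, both log axes, and grey lines at 1-fold, 2-fold and 5-fold. All points lie above the 1-fold line by construction, and the H3K36me3 points reach down to 20 KO reads and 0.6 scaled WT reads.

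The locus with the largest smallest ratio ran from 49144759 to 49167522 on chromosome 6. Its 3 H3K27ac events summed to 1801 KO reads and 90.2 scaled WT reads, which is 19.97-fold (95% interval 16.4 to 24.6). Its 4 H3K4me3 events had 3887 reads against 268, a ratio of 14.5 (12.1 to 17.5), and its 9 H3K36me3 events had 476.5 against 22.7, a ratio of 21.0 (15.3 to 30.2). Both the H3K27ac ratio and the lower limit of the H3K36me3 interval were the largest of the 63 loci. The marks lay in order along the chromosome, with some overlap. H3K36me3 occupied 49144759 to 49159581, H3K27ac 49157015 to 49164356, and H3K4me3 the far end, 49163888 to 49167522.

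In this locus the H3K4me3 events were not equal. The event at 49163888 had 1033 KO reads and 38.8 scaled WT reads, a ratio of 26.6 (16.8 to 45.3), and the one at 49164466 had 881 against 82.3, a ratio of 10.7 (7.81 to 15.4). The last event, at 49167522, carried the k-mer ACTTtcac and had 1144 reads against 93.7. The H3K27ac event at 49164356 had 777.5 KO reads against 34.4, and its ratio of 22.6 (16.7 to 32.3) had the largest lower limit of the 240 member H3K27ac events.

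The second locus, 158122103 to 158136764 on chromosome 2, had 1 H3K4me3 event, with 468.5 KO reads against 32.6 and a ratio of 14.4 (8.73 to 26.2). H3K27ac lay on one side of it, in 4 events with a joint ratio of 12.6 (10.6 to 15.0), each between 10.3 and 15.5. H3K36me3 lay on the other side, in 3 events from 158135129 to 158136764 with 117 KO reads against 5.7 and a ratio of 20.5 (10.7 to 43.5). This locus and the one on chromosome 6 were the only ones of the 63 whose 3 ratios all exceeded 10 at the scale of the lists.

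On chromosome 16, the locus at 22141272 to 22168785 held the most H3K4me3 events, 8, and the most H3K4me3 reads, 6235 in KO against 689 in WT and a ratio of 9.05 (8.09 to 10.2). The ratio was uneven within it. The largest ratio of any member event, 115, was at 22152389 and rested on 149.8 KO reads against 1.3 (12.4 to 2780). At 22160317, 432.1 KO reads stood against 7.6 (ratio 56.9, 19.5 to 186), at 22161065 917.1 against 12.6 (72.8, 32.6 to 195), and at 22161757 1402 against 58.1 (24.1, 16.6 to 36.9). The next events had lower ratios: 9.30 (6.92 to 12.6) at 22162537, 4.68 (3.87 to 5.69) at 22162742 with 1193 reads against 254.8, and 4.27 (3.49 to 5.27) at 22164092 with 972.4 against 227.7. From 22160317 on, the KO reads of the events differed by a smaller factor than their WT reads did. H3K27ac, in 4 events with a joint ratio of 7.55 (6.58 to 8.69), also varied, from 2.77 (2.26 to 3.44) at 22150833 to 19.3 (12.9 to 31.3) at 22161660. H3K36me3 had 6 events with a ratio of 15.2 (10.1 to 23.6).

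The locus on chromosome 11 at 95855474 to 95879346 had 6 H3K4me3 events between 95864061 and 95867849, with 3060 KO reads against 236.5 and a ratio of 12.9 (10.7 to 15.8). Here too the ratios of the H3K4me3 events were uneven. The event at 95866098 reached 70.5 (28.7 to 272), on 9 scaled reads in WT, while that at 95867028, with the most KO reads, had 854.6 against 142.4 and a ratio of 6.00 (4.70 to 7.88). H3K27ac had a joint ratio of 6.55 (5.85 to 7.34), and its event farthest from H3K4me3, at 95879346, the smallest single ratio, 2.79 (2.35 to 3.33). The 4 H3K36me3 events had a ratio of 8.16 (5.67 to 11.9).

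A longer locus, 49650758 to 49709898 on chromosome 17, held 21 events over 59141 bp. Its H3K4me3 was narrow, with 3 events from 49702079 to 49703307, and had 2685 KO reads against 175.8 and a ratio of 15.3 (12.3 to 19.3). The 8 H3K27ac events fell in a near group and a far group. The 3 beside H3K4me3 had ratios of 9.99, 8.48 and 14.7, and the 5 from 49653966 to 49678148 had ratios of 3.73 to 5.89. The 10 H3K36me3 events, with 391 reads against 26.8, had a ratio of 14.6 (10.7 to 20.02) and reached 51321 bp from the nearest H3K4me3 event.

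**Figure D3:**
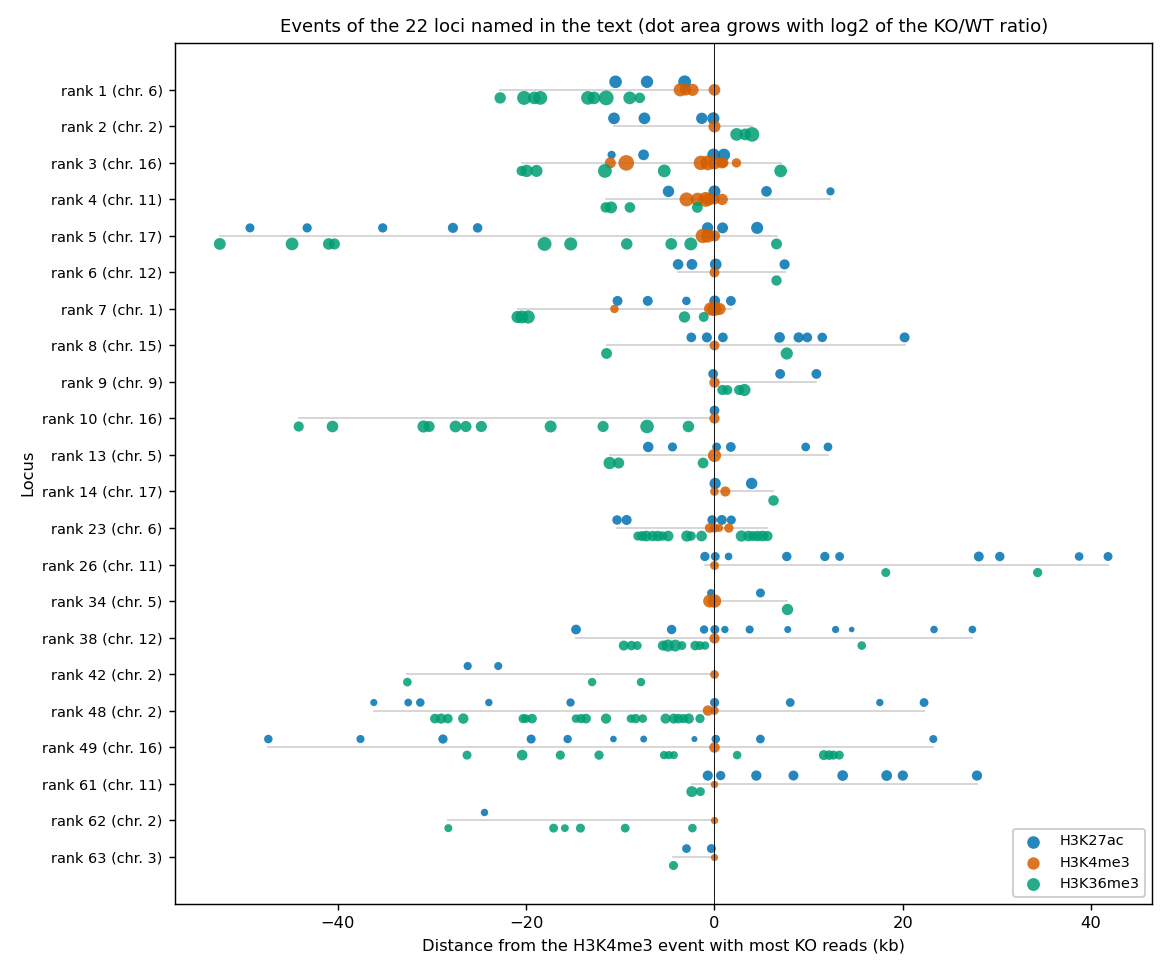
Each row is 1 of 22 loci chosen by the rule for named loci, the horizontal axis is the distance in kb from the H3K4me3 event with the most KO reads, and dots are events coloured by mark with an area that grows with the log2 ratio. In most rows the H3K4me3 dots gather within a few kb of 0, but at ranks 3 and 7 they span 13400 and 11173 bp. A single H3K4me3 event, as in 32 of all 63 loci, lies at 0 by construction. H3K27ac dots lie on the H3K4me3 dots and beyond. The H3K36me3 dots lie all to 1 side of H3K4me3 in 14 rows and on both sides or between H3K4me3 dots in 8.

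In 5 other loci every mark was at least 5-fold higher in KO at the scale of the lists. Of these, the locus at 142058106 to 142080766 on chromosome 1 had the largest H3K4me3 ratio, 14.0 (10.4 to 19.5). Its ratio was 12.4 (8.12 to 19.7) for H3K36me3 and 5.41 (4.90 to 5.97) for H3K27ac. It held a strong H3K4me3 group around 142079021, where the ratio was 52.5 (21.5 to 156), and a weak event at 142068396, with a ratio of 3.08 (1.91 to 5.20). The locus at 22984817 to 23028983 on chromosome 16 had a simple plan: 1 H3K27ac and 1 H3K4me3 event 1 bp apart, with ratios of 5.08 (3.97 to 6.58) and 6.33 (3.66 to 12.3), and 11 H3K36me3 events that reached 44165 bp away to 1 side and were 10.99-fold higher (8.28 to 14.7). At 31740797 to 31752109 on chromosome 12, H3K27ac led with 9.11 (7.94 to 10.5) at the scale of the lists. Relative to expected reads it had 5.37, below the 7.63 of H3K4me3. H3K36me3 was a single event there, of 34 reads against 5.2. The locus at 55670501 to 55702162 on chromosome 15 had 8 H3K27ac events with a ratio of 5.50 (5.07 to 5.99), and 51 H3K36me3 reads against 4.6. On chromosome 9, 47354096 to 47365063 had ratios of 5.14 (4.39 to 6.05), 6.65 (3.71 to 13.1) and 6.81 (4.54 to 10.3) for H3K27ac, H3K4me3 and H3K36me3.

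In some loci H3K27ac and H3K4me3 differed widely. The locus at 136145761 to 136153969 on chromosome 5 had the largest for H3K4me3, 29.8 (17.0 to 57.9), from 767 KO reads against 25.7, beside an H3K27ac ratio of 3.20 (2.77 to 3.70) and an H3K36me3 ratio of 10.4 (5.21 to 22.5). Another on chromosome 5, 113632199 to 113655390, had 26.3 (13.9 to 54.0) for its single H3K4me3 event, 4.14 (3.79 to 4.54) for its 6 H3K27ac events and 9.89 (5.78 to 18.03) for H3K36me3. At the scale of the lists, the reverse was seen at 47277356 to 47283580 on chromosome 17. H3K27ac stood at 10.4 (8.74 to 12.4) in this locus and H3K4me3 at 4.10 (3.58 to 4.71). Relative to expected reads the 2 ratios were close, 7.20 and 6.90. There the WT cells already had 510.6 scaled reads of H3K4me3, against 2093 in KO. The largest H3K36me3 ratio, 38.3 at 106524026 to 106540356 on chromosome 2, a locus picked out after its values were seen, rested on 23 KO reads and 1 unscaled WT read, and its interval ran from 6.50 to 1648.

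Of the 5 loci with the most events, the one on chromosome 17 held 21 events. At the scale of the lists it was also among the 10 with every mark at least 5-fold higher, and the other 4 were not. On chromosome 2, 157935717 to 157994170 held 31 events, 20 of them H3K36me3, with ratios of 2.64 (2.49 to 2.80) for H3K27ac, 3.51 (2.996 to 4.14) for H3K4me3 and 4.27 (3.85 to 4.73) for H3K36me3. On chromosome 6, 48779960 to 48795935 held 25 events and the most H3K36me3 reads of any of the loci, 1619 in KO against 250.5 in WT and a ratio of 6.46 (5.81 to 7.19). H3K36me3 lay on both sides of H3K4me3 there, within 7630 bp. The longest locus, 90845862 to 90916501 on chromosome 16, spanned 70640 bp with 24 events. Its single H3K4me3 event had a ratio of 6.91 (3.76 to 14.1), its 11 H3K27ac events 2.60 (2.46 to 2.75) and its 12 H3K36me3 events 3.66 (3.14 to 4.28). At 9890286 to 9932391 on chromosome 12, 23 events included 11 of H3K27ac with a ratio of 2.80 (2.67 to 2.95) and 11 of H3K36me3 with 4.68 (3.93 to 5.57).

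At the other end, the weakest mark was H3K4me3 in the 3 loci with the smallest of the 3 ratios. The lowest, 1.97 (1.41 to 2.82), was seen at 49832928 to 49837366 on chromosome 3 with 182 KO reads against 92.3, and was the lowest of any mark in any of the loci. On chromosome 2, 134616915 to 134645184 had 2.05 (1.46 to 2.94), and on chromosome 11, 62732391 to 62762682 had 2.15 (1.65 to 2.83). The last of these had an H3K27ac ratio of 6.20 (5.73 to 6.71) over 8 events, so a weak H3K4me3 difference did not always go with a weak H3K27ac difference. The 41 loci not chosen by the rule for named loci had ratios of 2.203 to 10.9 for H3K27ac (median 3.45), 2.31 to 19.1 for H3K4me3 (3.89) and 2.65 to 38.3 for H3K36me3 (4.44).

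The distance of 10 kb that joined events was met narrowly in some loci. The widest gaps inside a locus were 9988 bp in the longest one on chromosome 16, 9975 bp at 117895208 to 117927830 on chromosome 2 and 9879 bp at 67831490 to 67874315 on chromosome 11. The last of these had the most H3K27ac reads of the loci, 6417 in KO against 1660 in WT, in 10 events. Just outside, a pair of chains on chromosome 12, 36744426 to 36753568 and 36763692 to 36768787, together had all the marks but lay 10124 bp apart, and the next pairs lay 10872 bp apart on chromosome 13 and 11964 bp apart on chromosome 6. Only 2 chains with all 3 marks higher in KO were left out for an event higher in WT: 86181982 to 86230962 on chromosome 12, with 7 such events among 21, and 42119644 to 42129454 on chromosome 19, with 1 H3K4me3 event among 8.

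The positions of the marks within the loci were not used by the rule, except that neighbours lay within 10 kb. The names of the H3K27ac and H3K4me3 lists carry the words dnase and fib_WT, and those of H3K36me3 do not. What part DNase data had in placing events is not defined in the sources used here. Its effect on the distances below was not tested. H3K4me3 events lay a median of 367.5 bp from the nearest H3K27ac event of the locus (quartiles 140 and 794), and 102 of 120 (85%, 77.3 to 90.9) were within 1 kb of one. H3K36me3 events lay farther out, a median of 7809 bp from the nearest H3K4me3 event (3542 and 13775), and 13 of 257 (5.06%, 2.72 to 8.49) were within 1 kb. That median moved with the settings: it was 4101 bp with chains of at most 5 kb, 12181 bp with 20 kb and 4413 bp with events at a −log10 q of at least 5. H3K27ac lay both beside H3K4me3 and away from it: 84 of 240 events (35%, 29.0 to 41.4) were within 1 kb of H3K4me3, and the median distance was 4454.5 bp. In 4 loci, on chromosomes 1, 6, 12 and 16, neighbouring H3K4me3 events were more than 2 kb apart. In 32 loci there was a single H3K4me3 event and so no such neighbour.

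In 52 of the 63 loci (82.5%, 70.9 to 90.9) all H3K36me3 events lay to 1 side of all H3K4me3 events. A single H3K36me3 event, as in 18 loci, lies on 1 side unless it falls between H3K4me3 events. Among the 45 loci with at least 2, the number was 34 (75.6%, 60.5 to 87.1), and among the 35 with at least 3 it was 25 (71.4%, 53.7 to 85.4). The H3K36me3 events of a locus with at least 2 spanned a median of 9.93 kb, and up to 59.1 kb. Their ratios did not fall steadily with distance from H3K4me3. The median was 5.88 for 93 events within 5 kb, 6.11 for 68 events up to 10 kb, 4.82 for 59 events up to 20 kb and 5.44 for 37 events beyond. For H3K27ac the medians were 4.23 for 84 events within 1 kb (quartiles 3.10 and 5.94), 4.09 for 82 events up to 10 kb (2.66 and 5.60) and 3.18 for 74 events beyond (2.47 and 4.32). The quartiles overlapped, and the farthest H3K27ac events came from 23 loci only.

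Event by event, the members were then set beside the rest of their lists. Of the member events, 71 of 240 for H3K27ac were at least 5-fold higher in KO (29.6%), 64 of 120 for H3K4me3 (53.3%) and 150 of 257 for H3K36me3 (58.4%). In the whole lists of events higher in KO the shares were 8.99%, 39.3% and 34.8%. The median ratio was 3.72 for member H3K27ac events and 2.85 for the other 8083, 5.97 for member H3K4me3 events and 3.82 for the other 618, and 5.62 for member H3K36me3 events and 3.91 for the other 1452. Member H3K4me3 events had a median of 432 KO reads and the others 217.9, whereas for H3K36me3 the medians were 42 and 39.1. The loci held 16.3% of the KO-higher H3K4me3 list, 15.0% of the H3K36me3 list and 2.88% of the H3K27ac list. The quartiles of members and others overlapped in every mark, and since the loci were chosen on the same lists no test of these differences was made.

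The most similar chains had 2 of the marks higher in KO and no listed event of the other mark or of WT. They were 262 with H3K27ac and H3K4me3, 226 with H3K27ac and H3K36me3, and 13 with H3K4me3 and H3K36me3. Only the 262 were compared, so member H3K36me3 events were set beside no such class. In the 262 chains, the 308 H3K4me3 events had a median ratio of 4.18 (quartiles 2.92 and 6.80) on a median of 216 KO reads. The 582 H3K27ac events had one of 3.07 (2.44 and 3.91). A missing H3K36me3 event means only that none passed the authors' threshold, and a stretch with few reads cannot pass it.

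**Figure D4:**
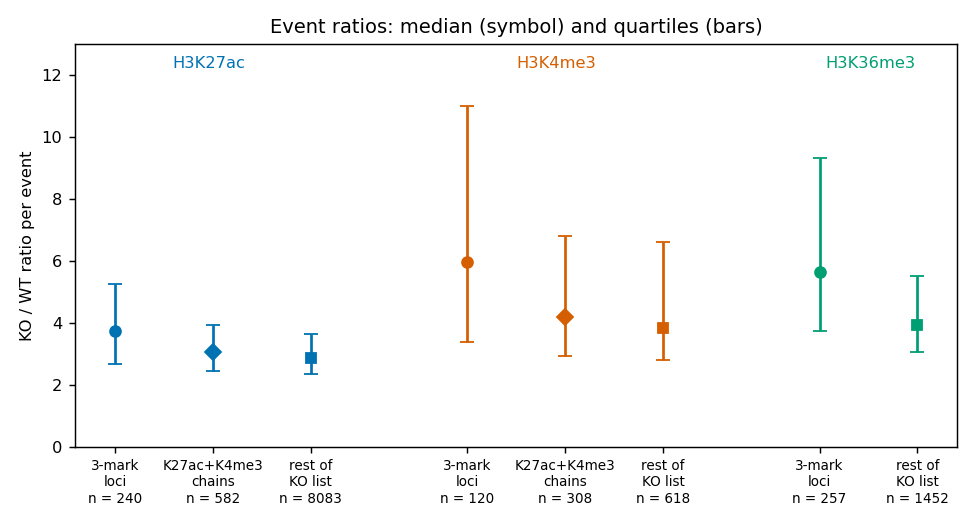
Symbols are median KO to WT ratios per event and bars are quartiles, for member events (circles), events of chains with H3K27ac and H3K4me3 alone (diamonds) and the rest of the KO-higher list without the members (squares, which include the diamonds). The member medians, 3.72, 5.97 and 5.62, lie above those of the rest, 2.85, 3.82 and 3.91, and the bars overlap in each mark.

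The counterpart was the set of 60 loci with all 3 marks higher in WT, with 541 events. Both sets had a median of 8 events per locus. The KO-higher loci spanned a median of 14.2 kb (quartiles 9.30 and 29.3) and the WT-higher loci 9.64 kb (6.23 and 18.0). H3K27ac made up 38.9% of the events in the KO-higher loci and 28.5% in the WT-higher loci, and H3K4me3 19.4% and 33.1%. The whole lists differ in the same direction, so these shares are not a trait of the loci alone. They hold 8323 H3K27ac and 738 H3K4me3 events higher in KO, and 1765 and 5542 higher in WT. The median H3K27ac ratios were 3.74 in the KO-higher and 3.43 in the WT-higher loci at the scale of the lists, but 2.59 and 3.97 when each genotype's reads were taken relative to the expected reads that the lists give for it on the same chromosome. Those of H3K4me3 were 4.21 and 9.16 at the scale of the lists, but 6.59 and 4.95 relative to expected reads, so the order of the sets turned with the scale in both marks. The 4.95 rests on the scaling factor of the WT-higher H3K4me3 list, which is less certain, with 54.2% of control values whole. The median H3K36me3 ratios were 5.34 and 9.06, from lists made by different programs. H3K36me3 lay on 1 side of H3K4me3 in 45 of the 60 WT-higher loci (75%, 62.1 to 85.3), against 82.5% in the KO-higher loci, and the intervals overlap.

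The 63 loci lay on 17 of the 20 chromosomes. Chromosome 2 had 11, chromosomes 6, 11 and 12 had 6 each, and chromosomes 1 and 16 had 5 each. As a share of all chains these were 1.65% on chromosome 2 (95% interval 0.825 to 2.93), 1.63% on 16 (0.531 to 3.76) and 1.44% on 11 (0.529 to 3.10). Chromosome 9 had 1 of 833 chains, 0.12% (0.00304 to 0.667), next to 11 loci higher in WT, but only 86 of its chains held KO-higher events alone, and 1 of 86 is 1.16%, beside 1.28% over the genome. On chromosomes 18, 19 and X none was found among 279, 272 and 277 chains (upper limits 1.31%, 1.35% and 1.32%, beside 0.694% over the genome). Of these chains 189, 78 and 68 held KO-higher events alone, so chromosomes 19 and X offered few. The intervals cover counting error only and treat chains as independent. The expected reads also differ between chromosomes and genotypes, and their part in these counts was not tested. On chromosome 12, scaling to expected reads moved the H3K27ac ratios of the 6 loci from 2.80 to 9.11 down to 1.65 to 5.37, and in the locus on chromosome 9 the H3K27ac ratio went from 5.14 to 6.09.

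**Figure D5:**
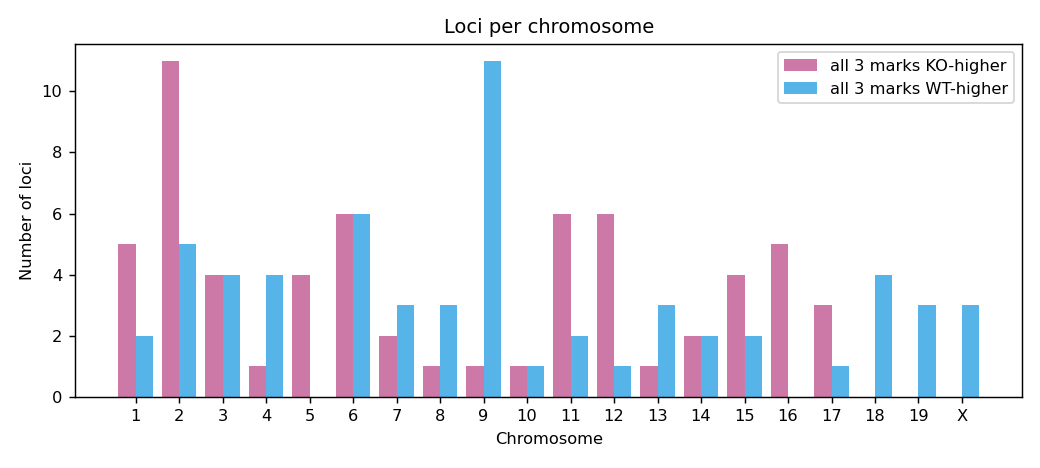
Bars give the number of loci per chromosome with all 3 marks higher in KO (purple) or in WT (light blue). Chromosome 2 has the most KO-higher loci, 11, and chromosome 9 the most WT-higher loci, 11.

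Loci also lay near one another: 16 of the 63 had another within 1 Mb, as 8 pairs. The closest pair was on chromosome 11, where 11132 bp separated 95834218 to 95844342 from the strong locus at 95855474. The nearer one had ratios of 5.22 (4.42 to 6.17) for H3K27ac, 3.94 (3.33 to 4.71) for H3K4me3 and 4.44 (3.67 to 5.41) for H3K36me3, and its H3K4me3 ratio was below the 12.9 of its neighbour. On chromosome 15, 25843 bp separated the locus at 55670501 from 55728005 to 55738254, where H3K27ac had 10.9 (7.78 to 15.96) in a single event and H3K4me3 3.68 (3.32 to 4.10) in 4 events with 3115 KO reads. On chromosome 6, 137462611 to 137469272 and 137503897 to 137517350 lay 34625 bp apart, with H3K27ac ratios of 3.62 and 5.25 and H3K4me3 ratios of 3.31 and 2.59. On chromosome 2, the locus with 31 events and the second-ranked locus lay 127933 bp apart, and the second-ranked locus had the higher ratio in every mark. The remaining pairs were 348824 to 919151 bp apart, on chromosomes 2, 6, 12 and 16. Neighbours were counted as separate loci throughout.

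Scaling to the expected reads multiplies every ratio of a mark on a chromosome by the same factor. All 63 loci stayed above 1 in both marks that allow it. Since they were chosen for more KO reads of these marks, this is no test of the loci. H3K27ac ratios then ran from 1.59 to 13.5 with a median of 2.59, lower than the 3.74 at the scale of the lists, and H3K4me3 ratios from 3.26 to 54.3 with a median of 6.59, higher than 4.21. The H3K4me3 ratio exceeded the H3K27ac ratio in 38 of 63 loci at the scale of the lists and in 59 of 63 at the expected-read scale. No such scale was tried for H3K36me3, whose expected reads are local values.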

How the data were processed

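ChIP-seq of H3K27ac, H3K4me3 and H3K36me3 in Dicer KO and Dicer WT cells was used as 6 event lists, 1 per mark and direction. Alignment was to mm9, and TopHat 1.4 is named without a role, per the submitters' processing notes. Events were placed by GPS (both H3K27ac lists and KO-higher H3K36me3) or GEM (the others), per the file headers and names. Each deposited event has an estimated count for the higher genotype, a scaled signal for the other, their fold ratio, an expected signal, −log10 q and p values limited at 999, and scores, which were not used. The lowest −log10 q in the deposited lists is 2. The versions of GPS and GEM were not known here.

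From these, the scaling factor of WT reads was sought over steps of 0.0005 from 0.3 to 3, among events whose own count was whole. The factor kept had the largest share of control values that came out whole, to within 0.06, after a share allowed for chance was subtracted. It was 0.8495 for H3K27ac, 2.1455 for H3K4me3 and 0.575 for H3K36me3, with 88.8%, 94.4% and 96.3% whole. It was less certain for the WT-higher H3K4me3 list, where 54.2% came out whole. The search and the chaining were tested on simulated data. Ratio intervals are exact conditional binomial (Clopper-Pearson) intervals of unscaled reads, and shares have exact Clopper-Pearson intervals. They cover counting error only, since sequenced reads may repeat the same molecule. Total depth per library is unknown. No test across loci was run.

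Members, the rule for named loci and all comparisons were chosen with earlier results of these data known. By that rule the text gives the 10 loci with the largest smallest ratio, the 5 with most events, the 3 with the largest lower interval limit per mark, the 3 with most H3K4me3 reads, the 3 weakest and the 3 with the widest gap, 22 in all. The distance classes, the counts for loci with at least 2 or 3 H3K36me3 events and the repeat unit of the k-mers were chosen after the values were seen. Gene names and region sequences were not used here, for want of mm9 annotation. Promoter windows are from RefSeq, GRCm38.p6. The work used SciPy 1.17.1, pandas 2.3.3 and NumPy 2.4.6 under Python 3.11.15, with figures by matplotlib 3.10.9.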

Additional observations from a re-analysis of the deposited data

How the results depend on the processing

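The number of loci was 42 with chains of at most 5 kb, 76 with 20 kb and 56 without chromosomes 9 and 12, against 63. With events at a −log10 q of at least 5 it fell to 26 loci with 216 events, 212 of them members before, and at 5 kb there were 361 events, against 617. The median H3K36me3 distance to H3K4me3, 7809 bp, was 4413 bp at the stricter q, 4101 bp at 5 kb and 12181 bp at 20 kb. At the stricter q the median ratio was 6.76 for H3K4me3 and 7.91 for H3K36me3, and the cause was not tested. Taking the largest event of each locus gave 4.84, 6.33 and 6.76 for H3K27ac, H3K4me3 and H3K36me3, and the expected-read scale 2.59 and 6.59 for H3K27ac and H3K4me3. With 1 read added the medians were 3.73, 4.16 and 5.15. The share of loci with H3K36me3 on 1 side ran from 82.5% to 88.5% over the alternatives run, and the median H3K4me3 to H3K27ac distance from 338 to 390 bp. No paired analysis was possible because every event has a single KO value and a single WT value, which also leaves no replicate to omit. Few reads limit the H3K36me3 ratios, with a median of 102.5 KO reads per locus.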
